A study of Mus musculus with 6 samples.

Results

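Genes that encode the enzymes of the urea cycle and of amino acid breakdown were examined in mouse liver RNA-seq. The 46 genes were taken by symbol from a fixed list and cover the urea cycle, transamination and the breakdown of aromatic amino acids, histidine, serine and threonine, branched-chain amino acids, lysine, proline, cysteine and glycine. They are 46 of the 54532 genes listed with an Ensembl identifier, and 45 of them were among the 12795 genes that passed the filter on low counts. The gene that did not pass was Tdh, the threonine dehydrogenase gene, which had 0 counts in all 6 libraries. At 0 counts a library allows a level of up to 3 counts, so expression of Tdh was not detectable at this depth.

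The study asked how allantoin, an oxidation product of uric acid, affects the liver of mice on a high-fat diet (HFD). All 6 livers came from wild-type male C57BL/6J mice that entered at 8 weeks of age and were fed HFD, at first for 4 weeks and then for 4 more. The HFD group (replicates 1 to 3) had no supplement, and the HFD+allantoin group (replicates 4 to 6) had allantoin in the drinking water during the last 4 weeks. The labels name 0.06 and 0.3 mg/mL without assigning a dose to a library, and the study's methods give 0.3 mg/mL for the sequenced group. No library of mice without HFD was analysed here, so every value below is relative to HFD alone. Each library is taken as a liver of its own, and the p-values measure the spread between these libraries.

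Amino acids that are not needed for protein synthesis are stripped of their nitrogen, mostly by transfer to glutamate, and their carbon skeletons enter the citric acid cycle, gluconeogenesis or ketone body formation. The ammonia released is toxic, and hepatocytes turn it into urea in a cycle that begins in the mitochondrion and ends in the cytosol. The liver holds the complete urea cycle and most of the catabolic routes for aromatic amino acids and histidine. Branched-chain amino acids differ in that their transamination takes place mainly outside the liver, while the oxidation of the resulting ketoacids is active in it.

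Libraries held 11304059 to 14562848 counts of genes with an Ensembl identifier. Levels are given as CPM, counts scaled to a common library size with TMM factors, which offsets differences in the make-up of the libraries. Mitochondrially encoded RNA made up 17.9% to 36.5% of the HFD libraries but 6.92% to 11.4% of the HFD+allantoin libraries, with the highest share in HFD replicate 1. HFD replicate 2 stood apart by 3 of 6 adipocyte markers, with 51.2 CPM of Adipoq, 49.1 of Plin1 and 19.7 of Retn, which were at 0 in both other HFD libraries. The sum of all 6 markers, most of it from Car3, was 3300, 3247 and 4226 CPM in HFD replicates 1 to 3 and thus lowest in that library. HFD replicate 3 had 43.6 CPM of Sox9, a cholangiocyte marker, against 8.30 and 13.0 CPM in the other two HFD libraries. Hepatocyte markers were abundant in every library, with Alb at 54400 to 82140 CPM. However, 5 of the 8 were called lower in HFD+allantoin (median log2 fold change -0.91), or 62.5% against 13.0% of all tested genes. The test was the quasi-likelihood test of edgeR, and a gene is called when its p, adjusted over all 12795 genes, is under 0.05.

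Of the 45 tested members, 11 were called, which is 24.4%, and 24.3% of all tested genes were called. Among them, 3 were higher in HFD+allantoin, a share of 6.67% against 11.3% of all tested genes, and 8 were lower, a share of 17.8% against 13.0%. The genes that rose were Bckdha, Aldh4a1 and Cps1, and all encode mitochondrial enzymes. The genes that fell were Prodh2, Sdsl, Pcbd1, Ftcd, Fah, Arg1, Hibadh and Otc. The called share of the members was close to that of all genes, so these genes did not stand out as a group. The median log2 fold change was 0.03 over the members and -0.03 over all tested genes, and the median absolute log2 fold change was 0.43 against 0.49. The libraries of both groups did not overlap for 22 members, or 48.9%, against 44.3% of all tested genes. All HFD+allantoin libraries lay above all HFD libraries for 12 members, 26.7% against 22.4%, and below them for 10, 22.2% against 21.9%.

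**Figure D1:**
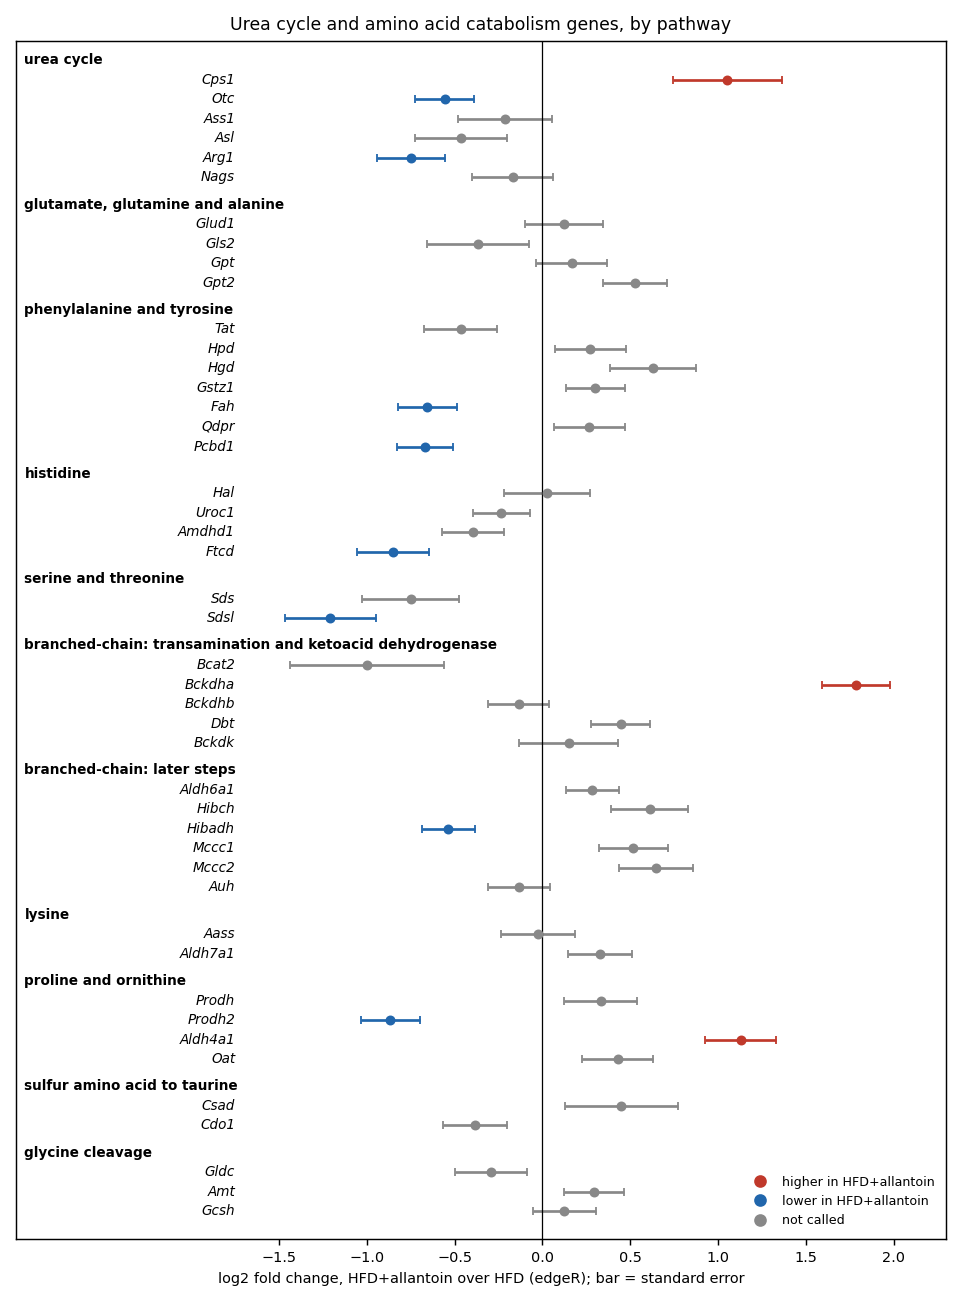
Log2 fold change of HFD+allantoin over HFD for the 45 tested members, in pathway order, with the standard error from edgeR as a bar and the call as colour. Calls are spread over several pathways, and urea cycle, branched-chain and proline genes hold calls in both directions.

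Without HFD replicate 2, the library with Adipoq and Plin1, 4 members were higher and 4 lower. Leaving out HFD+allantoin replicate 4, 5 or 6 left 2, 2 and 3 members lower and 2 higher in each case, and without HFD replicate 3 the count of higher members was 6. Over all tested genes, leaving out HFD+allantoin replicate 4, 5 or 6 moved the counts alike, from 1446 higher and 1666 lower to 596 and 700, 460 and 564, and 702 and 832. With the mitochondrial chromosome left out, the same counts of 3 and 8 were obtained. Scaling to the library total alone moved the median of all tested genes by 0.41 on the log2 scale and gave 15 members higher and 0 lower. Over all 12795 tested genes that scaling gave 3162 higher and 674 lower. The members' median exceeded that of all tested genes by 0.06 with TMM scaling and by 0.03 with library totals. The 11 called members kept the sign of their change under every scaling, while several uncalled ones did not.

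As a share of all counts, the members held 1.54% ± 0.299 in HFD and 2.06% ± 0.238 in HFD+allantoin (SD, n = 3; exact permutation test, two-sided, p = 0.1, the smallest p that 3 against 3 libraries allow). Among counts outside the mitochondrial chromosome the shares were 2.05% ± 0.183 and 2.25% ± 0.208 (exact permutation test, p = 0.3). Once mitochondrially encoded RNA was set aside, the shares of both groups overlapped. In bulk liver, fewer cells of a type and less RNA per cell cannot be told apart.

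In the urea cycle, Cps1 rose while Otc and Arg1 fell, and Ass1, Asl and Nags were not called. Cps1 (ENSMUSG00000025991; GRCm38 chromosome 1, 67123026 to 67231259) encodes the mitochondrial synthetase that fixes ammonia as carbamoyl phosphate. Its level was 536, 901 and 1032 CPM in the HFD libraries and 1403, 2408 and 1311 CPM in the HFD+allantoin libraries. Every HFD+allantoin library was above every HFD library, with replicate 5 far above the other two, and the log2 fold change was 1.05 (SE 0.31, adjusted p = 0.0385). The call was lost, at log2 fold changes of 0.73 to 1.21, when HFD replicate 1 or 2 or any HFD+allantoin library was left out (adjusted p = 0.0528 to 0.148), and also when each library's trend with transcript length and GC content was removed (0.81, adjusted p = 0.0840).

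Otc (ENSMUSG00000031173; chromosome X, 10252305 to 10321024) encodes the mitochondrial enzyme that joins carbamoyl phosphate to ornithine. Otc stood at 620, 775 and 671 CPM in HFD and at 450, 441 and 514 CPM in HFD+allantoin. The groups did not overlap, and the log2 fold change was -0.56 (SE 0.17, adjusted p = 0.0413), which passed in 8 of 16 alternative fits. Arg1 (ENSMUSG00000019987; chromosome 10, 24915221 to 24927484) encodes the cytosolic arginase that releases urea and regenerates ornithine. Its values were 1352, 1595 and 1107 CPM in HFD and 795, 888 and 731 CPM in HFD+allantoin. Arg1 was again lower in every HFD+allantoin library, with a log2 fold change of -0.75 (SE 0.19, adjusted p = 0.0239). Without HFD replicate 2 the change was -0.61 (adjusted p = 0.0633), and without HFD+allantoin replicate 4, 5 or 6 the adjusted p was 0.0945, 0.0710 and 0.0842. With library totals the change was -0.33 and not called (adjusted p = 0.3115).

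The steps between them overlapped between groups. Ass1, which condenses citrulline with aspartate, had 1103 ± 376 CPM in HFD and 951 ± 203 in HFD+allantoin (SD, n = 3; log2 fold change -0.21, adjusted p = 0.589), with HFD replicate 2 highest at 1537 CPM. A gene of 99.5% identity over 1240 bases, Gm5424, took 1007 to 3982 counts per library, so the count of Ass1 is uncertain. Asl, which splits argininosuccinate into arginine and fumarate, showed a log2 fold change of -0.46 (adjusted p = 0.221). Nags, whose product activates the Cps1 enzyme, had -0.17 (adjusted p = 0.628). Over the 6 urea cycle genes the median was -0.34 with TMM scaling and 0.07 with library totals. The medians of all tested genes were -0.03 and 0.38, so the list's median lay below that of all genes with both scalings. This difference was not tested.

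Pairs of genes were also read within each library, where scaling cancels. The 14 pairs were chosen after the members' values had been seen, so their ratios of read counts are given as a description only. An exact permutation test, two-sided, gave p of 0.1 or more for every pair and is not used for that reason. Where 2 genes lie apart between groups in opposite directions, their ratio is bound to lie apart as well. The ratio of Cps1 to Otc was 0.864, 1.16 and 1.54 in HFD and 3.12, 5.46 and 2.55 in HFD+allantoin. Against Arg1, Cps1 stood at 0.396, 0.564 and 0.933 in HFD and at 1.76, 2.71 and 1.79 in HFD+allantoin. For both pairs, every supplemented library lay above every HFD library, which the opposite shifts of these genes already require. The ratio of Ass1 to Asl, the neighbouring cytosolic steps, overlapped between groups at 2.15 to 2.64 and 2.59 to 3.17.

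**Figure D2:**
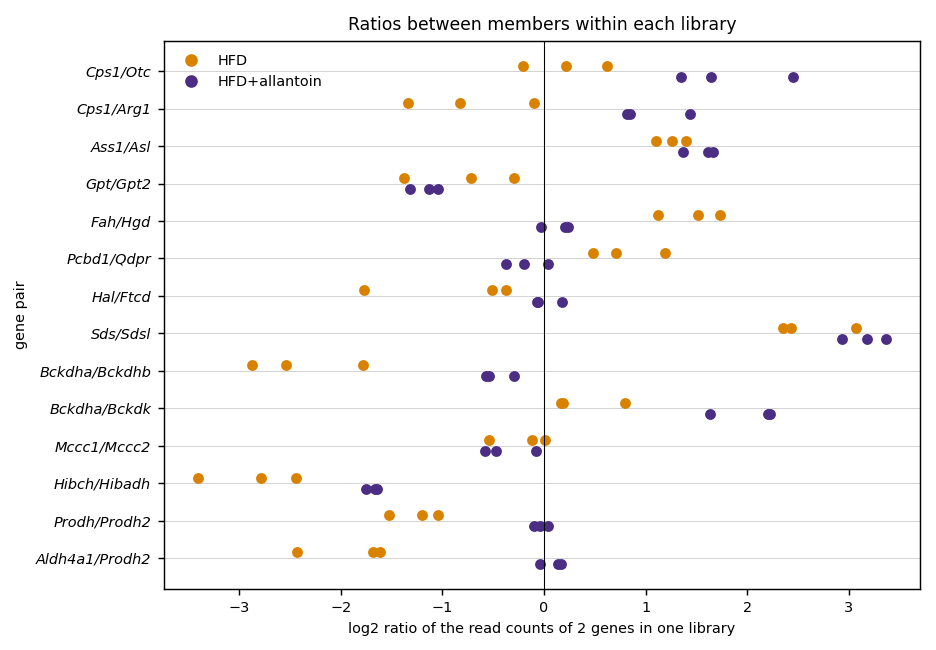
Log2 ratio of the read counts of 2 members in the same library, for 14 pairs; each point is a library and its colour the group. Cps1/Otc and Aldh4a1/Prodh2 lie apart between groups, whereas Ass1/Asl and Mccc1/Mccc2 overlap.

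Genes of glutamate, glutamine and alanine handling gave no call among 4 members, with 1 at an unadjusted p under 0.05, which DESeq2 and limma-voom called. That gene was Gpt2, the mitochondrial alanine aminotransferase, at 396, 314 and 450 CPM in HFD and 526, 607 and 541 CPM in HFD+allantoin. Its groups did not overlap, and the log2 fold change was 0.53 (SE 0.18, adjusted p = 0.0632). The cytosolic enzyme gene Gpt had a log2 fold change of 0.17 and overlapping groups. Glud1, the glutamate dehydrogenase that frees ammonia in the mitochondrion, had 886 ± 264 CPM in HFD and 965 ± 29.7 in HFD+allantoin (SD, n = 3; log2 fold change 0.12, adjusted p = 0.719). Gls2, the liver-type glutaminase, showed a log2 fold change of -0.37 (adjusted p = 0.383).

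In the tyrosine pathway, the last enzyme gene fell and the middle ones did not. Tyrosine is degraded by Tat, Hpd, Hgd, Gstz1 and Fah in that order. Fah (ENSMUSG00000030630; chromosome 7, 84585159 to 84606722) encodes fumarylacetoacetase, which yields fumarate and acetoacetate. Fah stood at 800, 929 and 716 CPM in HFD and at 519, 534 and 500 CPM in HFD+allantoin. No library of either group reached the other, and the log2 fold change was -0.66 (SE 0.17, adjusted p = 0.0231). Without HFD replicate 2 it was -0.55 (adjusted p = 0.0628), and without HFD+allantoin replicate 4, 5 or 6 the adjusted p was 0.0943, 0.0901 and 0.0786. With library totals the change was -0.24 and not called (adjusted p = 0.427).

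Hgd, the homogentisate dioxygenase gene, lay the other way, with 242, 426 and 250 CPM in HFD and 441, 544 and 435 CPM in HFD+allantoin. The groups did not overlap, but the change of 0.63 was not called (SE 0.24, adjusted p = 0.0880), and HFD replicate 2 lay close to the supplemented libraries. As a result the ratio of Fah to Hgd counts was 3.31, 2.18 and 2.87 in HFD and 1.18, 0.983 and 1.15 in HFD+allantoin. Gstz1, the isomerase between them, showed a log2 fold change of 0.30 (adjusted p = 0.219) with groups apart. Hpd, among the most abundant members, had 1430 ± 229 CPM in HFD and 1725 ± 274 in HFD+allantoin (SD, n = 3; log2 fold change 0.27, adjusted p = 0.353). Tat, the aminotransferase that opens the pathway and a known target of glucocorticoids, was lower in every HFD+allantoin library but not called (log2 fold change -0.47, adjusted p = 0.130).

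Phenylalanine hydroxylation uses tetrahydrobiopterin, which Pcbd1 and Qdpr restore in consecutive steps. Pcbd1 (ENSMUSG00000020098; chromosome 10, 61089331 to 61094324) had 270, 261 and 295 CPM in HFD and 179, 153 and 187 CPM in HFD+allantoin. Pcbd1 fell with no overlap (log2 fold change -0.67, SE 0.16, adjusted p = 0.0176). The call was lost without HFD+allantoin replicate 4 or 5 (adjusted p = 0.0726 and 0.102). It was also lost with library totals, at a change of -0.26 (adjusted p = 0.377). Removing the trend with transcript length and GC content brought the change to -0.33 and lost the call too (adjusted p = 0.146). Qdpr showed a log2 fold change of 0.27 (adjusted p = 0.359), and its groups overlapped.

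Histidine breakdown likewise held its call at the last step. Hal, Uroc1, Amdhd1 and Ftcd convert histidine to glutamate, and Ftcd passes the remaining carbon unit to tetrahydrofolate. Ftcd (ENSMUSG00000001155; chromosome 10, 76575648 to 76590338) had 564, 428 and 342 CPM in HFD and 266, 242 and 231 CPM in HFD+allantoin. The groups did not overlap, the HFD libraries were widely spread, and the log2 fold change was -0.85 (SE 0.21, adjusted p = 0.0190). Without HFD+allantoin replicate 4, 5 or 6 the adjusted p was 0.0638, 0.0855 and 0.0731. With library totals the change was -0.41 and not called (adjusted p = 0.166). Hal, the histidine ammonia-lyase gene, had 245 ± 82.1 CPM in HFD and 250 ± 26.7 in HFD+allantoin (SD, n = 3; log2 fold change 0.03, adjusted p = 0.951). Uroc1, the most abundant uncalled gene of this route, had 328 ± 42.5 and 279 ± 15.7 CPM (log2 fold change -0.23, adjusted p = 0.322), and Amdhd1, which lies next to Hal on chromosome 10, had -0.40 (adjusted p = 0.132). The median over the 4 genes was -0.31 with TMM scaling and 0.10 with library totals, against -0.03 and 0.38 over all tested genes.

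For serine and threonine, Sdsl fell and its neighbour Sds was not called. Sds encodes the dehydratase that turns serine into pyruvate, and Sdsl encodes a related protein. Both genes lie side by side on chromosome 5, Sdsl (ENSMUSG00000029596) from 120458186 to 120472810 and Sds from 120476526 to 120483932. Sdsl was low throughout, with 13.9, 13.5 and 9.95 CPM in HFD and 5.94, 6.21 and 3.98 CPM in HFD+allantoin. The groups were apart, and the log2 fold change of -1.21 (SE 0.26, adjusted p = 0.0120) was called in 15 of 16 alternative fits, the exception being scaling to library totals. Sds had 74.6, 114 and 50.8 CPM in HFD and 53.9, 47.3 and 41.0 CPM in HFD+allantoin. Its groups overlapped through HFD replicate 3, and the change of -0.75 was not called (SE 0.28, adjusted p = 0.0769), though DESeq2 (adjusted p = 0.0404), the fit without a filter (0.00876) and the fit without HFD replicate 3 (-0.99, 0.0110) called it lower. The ratio of Sds to Sdsl was 5.10 to 8.42 in HFD and 7.62 to 10.3 in HFD+allantoin, so it overlapped as well. Sds shares 360 exon bases with Plbd2 on the opposite strand, and the strand setting of the counting is not given in the sources used here.

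**Figure D3:**
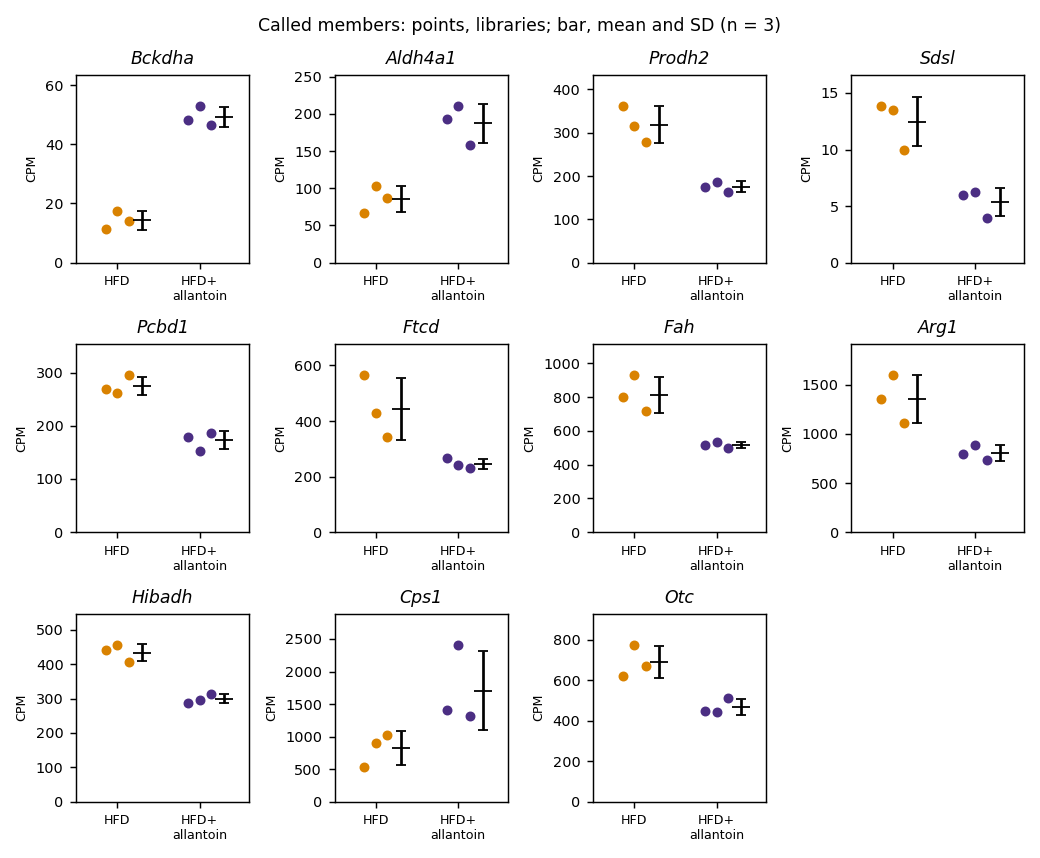
CPM of the 11 called members, in order of p, with a point per library and the mean and SD of each group (n = 3) as a bar; every axis starts at 0. Bckdha, Aldh4a1 and Cps1 were higher in all HFD+allantoin libraries, and the other genes were lower in all of them.

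Bckdha showed the largest change of the members. Branched-chain ketoacids are oxidised by a mitochondrial complex, of which Bckdha and Bckdhb encode the subunits of the decarboxylase and Dbt the transacylase, and Bckdk encodes the kinase that inactivates it by phosphorylating the Bckdha protein. Bckdha (ENSMUSG00000060376; chromosome 7, 25629946 to 25658981) had 11.2, 17.5 and 14.1 CPM in HFD and 48.3, 53.0 and 46.5 CPM in HFD+allantoin. The lowest supplemented library was far above the highest HFD library, and Bckdha rose 3.45-fold (log2 fold change 1.79, SE 0.19, adjusted p = 0.00204). The call was kept in all 16 alternative fits, with log2 fold changes of 1.64 to 2.19.

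Of Bckdha's exon bases, 1171 or 61.7% overlap B3gnt8 on the opposite strand. B3gnt8 had 11 to 45 counts per library and was not called (log2 fold change -0.90, adjusted p = 0.352). Whether reads of either gene were assigned to the other depends on the strand setting, which is not given in the sources used here.

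None of the other genes of the complex was called. Dbt had 71.7, 62.7 and 57.0 CPM in HFD and 79.3, 98.5 and 83.0 CPM in HFD+allantoin. Its groups did not overlap, but the change of 0.45 was not called (SE 0.17, adjusted p = 0.0814). Bckdhb showed a log2 fold change of -0.13 (adjusted p = 0.606) and Bckdk of 0.15 (adjusted p = 0.734). The ratio of Bckdha to Bckdhb counts was 0.137, 0.292 and 0.172 in HFD and 0.689, 0.814 and 0.673 in HFD+allantoin. The ratio of Bckdha to its kinase gene was 1.12, 1.14 and 1.74 in HFD and 3.11, 4.60 and 4.66 in HFD+allantoin. Both ratios lay apart between groups, although Bckdk had only 8.11 to 15.5 CPM. Bcat2, the aminotransferase that opens this route mainly in muscle and other tissues, had 44.5, 36.2 and 13.0 CPM in HFD and 21.6, 16.0 and 9.25 CPM in HFD+allantoin. Its groups overlapped (log2 fold change -0.998, SE 0.44, adjusted p = 0.125), and the antisense gene 0610005C13Rik, with 1576 to 2558 counts per library, overlaps 15.9% of its exon bases.

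Later steps of branched-chain breakdown gave 1 lower member of 6, or 16.7% against 13.0% of all tested genes. None was called higher, against 11.3% of all tested genes. The later members had 3 higher and 1 lower at an unadjusted p under 0.05, DESeq2 called 2 higher and 1 lower, and limma-voom called 1 higher and 1 lower. In valine breakdown Hibch, Hibadh and Aldh6a1 act in that order. Hibadh (ENSMUSG00000029776; chromosome 6, 52546228 to 52640389), the hydroxyisobutyrate dehydrogenase gene, had 441, 456 and 406 CPM in HFD and 288, 297 and 313 CPM in HFD+allantoin. The libraries within each group lay close together, and Hibadh fell with a log2 fold change of -0.54 (SE 0.15, adjusted p = 0.0326). Without HFD replicate 2 the adjusted p was 0.0779, and without HFD+allantoin replicate 4, 5 or 6 it was 0.136, 0.131 and 0.0807. The call was also lost with library totals (-0.12, adjusted p = 0.672) and without a filter (-0.50, adjusted p = 0.108).

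Hibch, the hydrolase before Hibadh, had 41.7, 66.4 and 74.6 CPM in HFD and 90.8, 95.1 and 93.1 CPM in HFD+allantoin. Every supplemented library was higher, but the change of 0.61 was not called (SE 0.22, adjusted p = 0.0698). The ratio of Hibch to Hibadh counts was 0.0946 to 0.184 in HFD and 0.297 to 0.321 in HFD+allantoin. Aldh6a1, the semialdehyde dehydrogenase after Hibadh, had 448 ± 20.5 and 546 ± 15.5 CPM (SD, n = 3; log2 fold change 0.28, adjusted p = 0.196). In leucine breakdown, Mccc1 and Mccc2 encode the subunits of a biotin-dependent carboxylase, and Auh encodes the hydratase that follows. Mccc1 and Mccc2 had log2 fold changes of 0.52 and 0.65 (adjusted p = 0.0844 and 0.0539), each with all supplemented libraries above, and Auh had -0.13 (adjusted p = 0.617). The ratio of Mccc1 to Mccc2 overlapped between groups, at 0.686 to 1.004 in HFD and 0.670 to 0.945 in HFD+allantoin.

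Proline and hydroxyproline breakdown held a pair of called genes with opposite directions. Prodh encodes proline dehydrogenase and Prodh2 the related hydroxyproline dehydrogenase, and Aldh4a1 encodes the mitochondrial dehydrogenase that takes up the products of both. Prodh2 (ENSMUSG00000036892; chromosome 7, 30493622 to 30513402) had 362, 316 and 278 CPM in HFD and 176, 187 and 162 CPM in HFD+allantoin. The groups were well apart, and the log2 fold change was -0.87 (SE 0.17, adjusted p = 0.00858). Aldh4a1 (ENSMUSG00000028737; chromosome 4, 139622866 to 139649690) had 67.4, 103 and 86.4 CPM in HFD and 193, 211 and 158 CPM in HFD+allantoin. Aldh4a1 was higher in every supplemented library, rose 2.19-fold (log2 fold change 1.13, SE 0.20, adjusted p = 0.00679) and kept its call in all 16 alternative fits, as Prodh2 did in 15.

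Within a library, the ratio of Aldh4a1 to Prodh2 counts was 0.186, 0.326 and 0.311 in HFD and 1.10, 1.13 and 0.975 in HFD+allantoin. Every supplemented library was far above the highest HFD library. Prodh itself was not called (log2 fold change 0.33, adjusted p = 0.268), though all supplemented libraries were above, and the ratio of Prodh to Prodh2 was 0.347 to 0.485 in HFD and 0.934 to 1.03 in HFD+allantoin. Oat, the ornithine aminotransferase gene, had 1484 ± 175 and 1996 ± 378 CPM (SD, n = 3; log2 fold change 0.43, adjusted p = 0.154). Gm21969 shares 1595 exon bases with Aldh4a1 on the same strand and had 0 or 1 count per library.

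The stretches before the transcription starts of Aldh4a1 and Prodh2 are shown because these genes act on the same route and moved in opposite directions. They come from RefSeq (GRCm38.p6) and end before every start annotated in GENCODE M21, at chr4:139622644-139622865 and chr7:30493408-30493621, both on the plus strand. The 250 bases before each start were searched on both strands for the cAMP response element TGACGTCA and its core TGACG. Also searched were the glucocorticoid receptor string AGAACA, the HNF4 core CAAAG and the C/EBP-like string TTGCNNCAA. That last string differs from the C/EBP consensus, so its matches are not read as C/EBP sites. The TGACG core lies inside the full element, so a match of the longer string counts for both. Neither window held any of them, and both sequences are therefore in lower case.
Aldh4a1: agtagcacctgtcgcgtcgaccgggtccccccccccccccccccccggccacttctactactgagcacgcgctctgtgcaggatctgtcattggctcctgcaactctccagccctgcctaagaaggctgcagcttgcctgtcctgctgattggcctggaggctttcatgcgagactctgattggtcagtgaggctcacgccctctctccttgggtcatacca
Prodh2: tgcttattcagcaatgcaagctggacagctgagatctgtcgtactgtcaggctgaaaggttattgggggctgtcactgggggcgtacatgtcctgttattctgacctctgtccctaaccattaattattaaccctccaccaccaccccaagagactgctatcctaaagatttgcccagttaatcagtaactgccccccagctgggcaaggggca

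A promoter window was given for 35 of the 46 members, among them 2 of those called higher and 6 of those called lower. The called genes Cps1, Arg1 and Sdsl had no window and were not searched. The string TTGCNNCAA occurred in 1 of the 35, or 2.86%, against 1.77% of all 27025 promoters. The member was Bckdha, where the match (capitals) lies 93 bases before the RefSeq start. It is printed within a stretch of 29 bases at chr7:25658845-25658873 on the minus strand, which overlaps an exon of the GENCODE gene.
Bckdha: ttatgcgtctTTGTCGCAAggtggttaga
The other strings were found in none of the members for the full cAMP response element against 1.62% of all promoters, in 11.4% against 17.9% for its core, in 5.71% against 16.1% for the glucocorticoid receptor string and in 51.4% against 48.7% for the HNF4 core. These are matches of letters and say nothing of binding.

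Lysine, taurine and glycine genes gave no call. The counts at an unadjusted p under 0.05, and the counts called by DESeq2 and by limma-voom, were 0 for each of these pathways too. Aass and Aldh7a1, which open and continue lysine breakdown, had log2 fold changes of -0.03 and 0.33 (adjusted p = 0.940 and 0.221). Aldh7a1 had 365 ± 67.7 CPM in HFD and 458 ± 41.5 in HFD+allantoin (SD, n = 3), and the groups overlapped. Cdo1, which oxidises cysteine toward taurine, had 1546, 2059 and 1860 CPM in HFD and 1529, 1364 and 1296 CPM in HFD+allantoin. All supplemented libraries were below, with HFD replicate 1 close to them, and the change of -0.38 was not called (SE 0.18, adjusted p = 0.156). Csad, the decarboxylase that follows, had 0.45 (adjusted p = 0.331). The glycine cleavage genes Gldc, Amt and Gcsh had log2 fold changes of -0.29, 0.29 and 0.13 (adjusted p = 0.321, 0.239 and 0.649). Gldc, the most abundant of them, had 96.1 ± 23.1 and 78.4 ± 9.29 CPM (SD, n = 3).

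**Figure D4:**
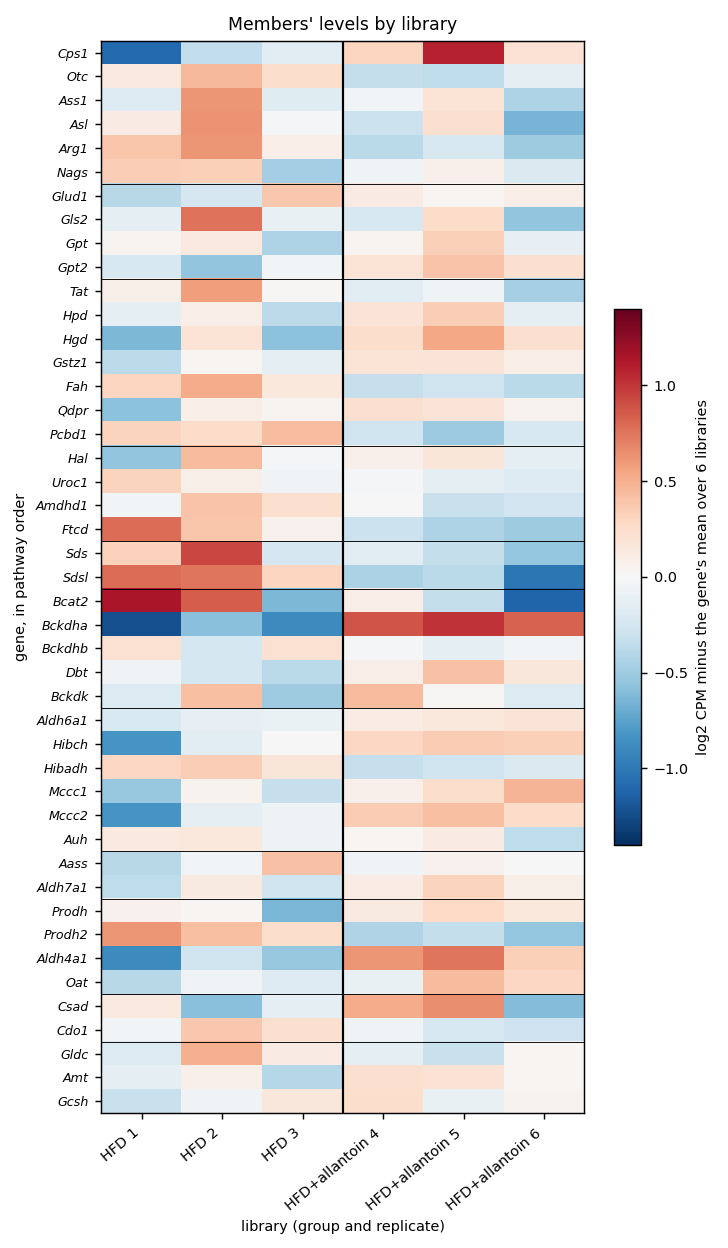
Log2 CPM of the 45 tested members in each library, minus the gene's mean over the 6 libraries, with lines between pathways and between groups. Bckdha, Aldh4a1 and Cps1 turn from blue to red between HFD and HFD+allantoin, HFD replicate 2 is the highest library for Ass1, Asl and Gls2, and most genes are mixed.

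Grouped by the site of the enzyme, calls in both directions were found in the mitochondrion and only lower ones in the cytosol. Of 25 tested mitochondrial members, 3 were higher and 3 lower, 12.0% each against 11.3% and 13.0% of all tested genes, with a median log2 fold change of 0.15. Of 18 cytosolic members, none was higher and 5 were lower, or 27.8% against 13.0% of all tested genes, with a median of -0.39. At an unadjusted p under 0.05 the cytosolic counts were 1 higher and 6 lower, DESeq2 gave 1 and 6, and limma-voom 0 and 5. With library totals the cytosolic median was 0.02 and the mitochondrial one 0.57, while the median of all tested genes was 0.38. The difference between the sites was not tested. Gstz1 and Aldh7a1, whose enzymes occur at both sites, were not called.

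Levels of different genes can be compared per kilobase of exon. In HFD, the highest members were Cdo1 at 1108 CPM per kb, Hpd at 672, Oat at 629, Arg1 at 607 and Ass1 at 457. In HFD+allantoin, Cdo1 stood at 849 CPM per kb, Oat at 846, Hpd at 811, Ass1 at 394 and Arg1 at 361. The same 5 genes led in both groups, and Cps1 went from 148 to 307 CPM per kb. The lowest tested members in HFD were Mccc1 at 2.91, Bckdk at 3.02 and Auh at 3.77 CPM per kb, all from branched-chain breakdown. This order depends on the annotated exon length, which was 10.95 kb for Mccc1 and 9.58 kb for Auh. By CPM in HFD, Mccc1 (31.86) and Auh (36.15) lay above Sdsl (12.45) and Bckdha (14.28). Neighbours in this order were not tested against each other.

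Related genes outside the 46 were taken from written lists. Of 50 tested other genes of amino acid breakdown and nitrogen disposal, 12 rose and 4 fell, 24.0% and 8.0% against 11.3% and 13.0% of all tested genes, with a median log2 fold change of 0.23. Mcee, the methylmalonyl-CoA epimerase gene on the route from valine and isoleucine to succinyl-CoA, fell (log2 fold change -1.09, adjusted p = 0.00392). Aspg, an asparaginase gene, and Gamt, which forms creatine, also fell (-1.37 and -0.96, adjusted p = 0.00542 and 0.00862), and Aspa, which splits acetylaspartate, rose (1.16, adjusted p = 0.00737). Of 8 tested genes of serine, proline and glutamine synthesis, 0 were called by edgeR, with 2 lower at an unadjusted p under 0.05, 2 lower with DESeq2 and 0 with limma-voom.

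Of 27 tested amino acid carriers, 9 were higher and 2 lower, or 33.3% and 7.41% against 11.3% and 13.0% of all tested genes. With library totals 13 carriers were higher and 1 lower, while 3162 of all 12795 tested genes were higher and 674 lower. Slc25a13, the mitochondrial aspartate-glutamate carrier that supplies the urea cycle with aspartate, rose from 125 ± 15.3 to 279 ± 31.9 CPM (SD, n = 3; log2 fold change 1.15, adjusted p = 0.00403). Slc25a44, a mitochondrial carrier of branched-chain amino acids, Slc6a6, the taurine transporter, and Slc38a4, a transporter of neutral amino acids, also rose (0.87, 0.81 and 0.75, adjusted p = 0.00992, 0.0112 and 0.0164). Among 17 genes known to control amino acid catabolism, 4 were higher and 3 lower, or 23.5% and 17.6% against 11.3% and 13.0% of all tested genes. Cebpb, a transcription factor of gluconeogenic and catabolic genes, fell from 257 ± 14.9 to 105 ± 16.2 CPM (SD, n = 3; log2 fold change -1.30, adjusted p = 0.00340). The glucagon receptor gene Gcgr fell (-0.91, adjusted p = 0.0221), and Sirt3, a mitochondrial deacetylase, and Nr3c1, the glucocorticoid receptor, rose (0.87 and 0.60, adjusted p = 0.0162 and 0.0258).

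**Figure D5:**
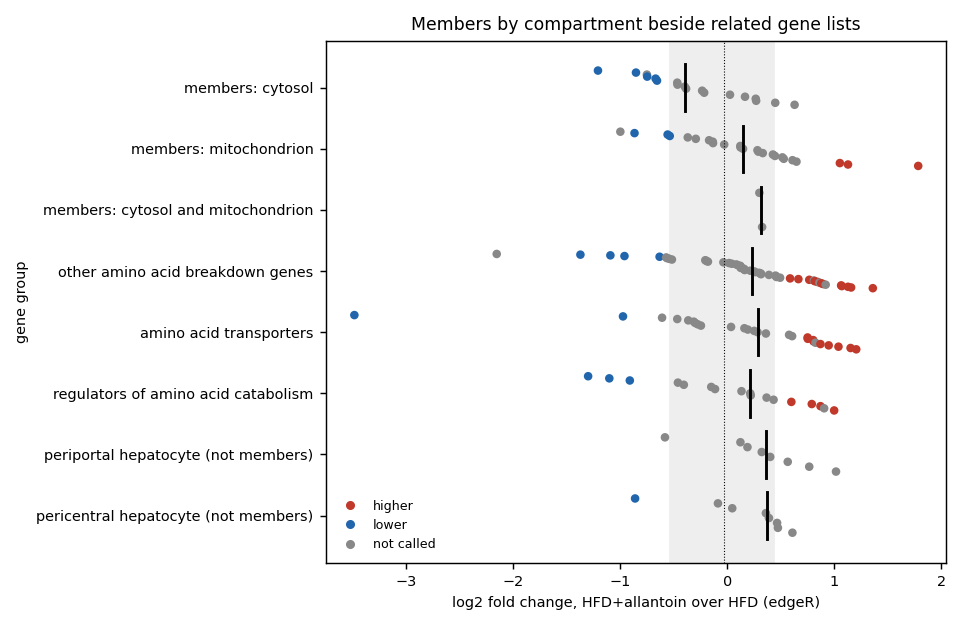
Log2 fold change of HFD+allantoin over HFD for the members by site of the enzyme and for related gene lists; each point is a gene coloured by its call, short black lines are medians, the dotted line is the median of all 12795 tested genes (-0.03) and the shaded band their quartiles (-0.54 to 0.44). Cytosolic members have a median of -0.39 and mitochondrial ones of 0.15, both inside the band.

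The enzymes are zoned along the liver lobule, with the urea cycle on the periportal side. Of 8 periportal genes that are no members, edgeR called 0, with 2 higher at an unadjusted p under 0.05, 2 higher with DESeq2 and 1 with limma-voom. Of 8 pericentral genes, Cyp1a2 fell (log2 fold change -0.86, adjusted p = 0.0274) with 2 higher and 1 lower at an unadjusted p under 0.05, and 1 higher and 1 lower with DESeq2 and with limma-voom. The medians were 0.36 and 0.38. For the marker lists that follow, the shares over all tested genes were 11.3% higher and 13.0% lower. Hepatocyte markers had 0 higher and 5 lower of 8, with summed levels of 107300 to 108500 CPM in HFD and 84360 to 113900 in HFD+allantoin. Stellate cell markers had 6 higher of 7, with sums of 129 to 189 and 314 to 371 CPM, and macrophage markers had 3 higher of 7, with sums of 106 to 255 and 300 to 339 CPM. No endothelial marker of 6 was called by edgeR, with 3 higher at an unadjusted p under 0.05, 2 with DESeq2 and 1 with limma-voom. Cholangiocyte markers had 0 higher and 1 lower of 3 tested, and adipocyte markers the same. Of 3 tested lymphocyte markers 0 were called, also at an unadjusted p under 0.05 and with either other tool. Of 5 red cell markers edgeR called 0, with 1 higher at an unadjusted p under 0.05 and with each other tool. Skeletal muscle markers did not pass the filter, and Ckm, Myh4 and Tnnt3 were at 0 in every library. The part of the cell make-up in the members' changes was not tested.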

How the data were processed

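Liver RNA-seq libraries of 3 HFD and 3 HFD+allantoin mice were analysed, grouped by their labels. The deposited table holds unnormalized counts for each gene, which the authors obtained from SMARTER mRNA-Seq libraries after filtering the Illumina reads. The submitters' processing notes name the builds GRCm38 and mm10, and aligner, counter and strand setting are not given in the sources used here. Of 54532 Ensembl identifiers, 54495 were found in GENCODE M21 (GRCm38), and 429 features without one (0.197% to 0.306% of counts) were left out.

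The model was edgeR 4.0.16 in R 4.3.3 (TMM, filterByExpr, quasi-likelihood test, Benjamini-Hochberg adjustment over 12795 genes) with the group as its only term, as the labels give neither pairs nor batches. Standard errors were derived from the F statistic. The same steps were run on simulated counts with planted changes larger than that of any member. That run therefore does not show their accuracy for changes of the size seen here. CPM per kb used the union of annotated exons. BLAST 2.17.0 was used to find near-identical transcripts (95% identity or more over 200 bases or more). Promoters came from RefSeq. Members without a promoter window were not searched for motifs.

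The results were recomputed with upper-quartile, RLE and library-size scaling, DESeq2 1.42.0, limma-voom (limma 3.58.1), no filter, a minimum of 10 counts in each library, removal of each library's length and GC trend (splines with 5 degrees of freedom), leaving out the mitochondrial chromosome, keeping features without identifier, leaving out each library, and an adjusted p under 0.01.

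The members and lists were chosen with earlier results of these data known. Every member is accounted for. Named with values are all called members, the most abundant uncalled member of each pathway and up to 4 called genes with the smallest p of each related list, and the other uncalled members by their fold change.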

Additional observations from a re-analysis of the deposited data

How the results depend on the processing

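Of the 11 called members, Bckdha and Aldh4a1 kept their call in all 16 alternative fits, Prodh2 and Sdsl in 15, Ftcd and Pcbd1 in 12, Arg1 and Fah in 11, Cps1 and Hibadh in 10 and Otc in 8, and none changed sign. Scaling to library totals gave 15 members higher, 0 lower and a median log2 fold change of 0.42, where the median of all genes was 0.38. Of all tested genes, 3162 were then higher and 674 lower. DESeq2 gave 7 higher, limma-voom 5 and no filter 6, and an adjusted p under 0.01 left 1 lower. Leaving out each library in turn gave 2 to 6 higher and 2 to 9 lower, with members' medians of -0.04 to 0.11, while over all tested genes it gave 460 to 1773 higher and 564 to 2008 lower. Uncalled members changed sign as follows: with library totals, Ass1 0.20, Nags 0.27, Gls2 0.039, Uroc1 0.20, Amdhd1 0.010, Bckdhb 0.29, Auh 0.29, Aass 0.36, Cdo1 0.022 and Gldc 0.10; with length and GC trends removed, Nags 0.14, Glud1 -0.0073 and Hal -0.18; with limma-voom and without a filter, Aass 0.0092 and 0.0096. Leaving out a library turned Ass1 (range -0.36 to 0.10) to 0.10 (HFD replicate 2), Glud1 (-0.027 to 0.40) to -0.027 and Hal (-0.19 to 0.30) to -0.19 (HFD replicate 1), Bckdk (-0.041 to 0.45) to -0.038 and Aass (-0.20 to 0.21) to 0.21 (HFD replicate 3), Bckdk to -0.041 and Aass to 0.0052 (HFD+allantoin replicate 4) and Hal to -0.037 (HFD+allantoin replicate 5). The cause was not tested. No paired analysis was possible because the groups share no replicate numbers.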

Other observations

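The last steps from valine, isoleucine and threonine to succinyl-CoA did not move in the same direction. These genes lie outside the 46 and were chosen after their values had been seen. Pccb, a subunit of propionyl-CoA carboxylase, had 47.1, 73.3 and 97.2 CPM in HFD and 165, 161 and 132 CPM in HFD+allantoin (log2 fold change 1.07, adjusted p = 0.0181). Its partner subunit Pcca was not called (0.49, adjusted p = 0.110). Mcee, the epimerase that follows, had 67.1, 82.8 and 68.0 CPM in HFD and 34.0, 33.2 and 35.0 CPM in HFD+allantoin, and its groups did not overlap. Mut, the mutase at the end of the route, had 57.9, 90.3 and 101 CPM in HFD and 164, 176 and 182 CPM in HFD+allantoin (adjusted p = 0.0102). Mcee and Mut kept their calls in all 16 alternative fits and Pccb in 14.

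Abat, the aminobutyrate aminotransferase that also serves valine breakdown, rose from 142 ± 57.2 to 365 ± 41.4 CPM (SD, n = 3; adjusted p = 0.0137). Abat kept its call in 15 of 16 alternative fits.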
